A study of Saccharomyces cerevisiae with 8 samples.

Results

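The genes described here encode the TRAMP complex and the nuclear cofactors of the RNA exosome in budding yeast, *Saccharomyces cerevisiae*. They were found by systematic name among the features of the count table, and all 8 were present, each as 1 feature of its own, out of 7658 features used. The 5 TRAMP genes were TRF5, TRF4 (also PAP2), AIR1, AIR2 and MTR4, and the 3 cofactor genes were RRP6, LRP1 and MPP6. The rule used names only, but the members were chosen with earlier results of these data known.

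The RNA exosome is a complex that trims and destroys RNA from its 3′ end. In the nucleus it is helped by TRAMP, in which a poly(A) polymerase, Trf4 or Trf5, adds a short adenosine tail to an unwanted RNA, a zinc-knuckle protein, Air1 or Air2, binds that RNA, and the helicase Mtr4 unwinds it. Rrp6 is the nuclear exonuclease attached to the exosome, Lrp1 (also Rrp47) is its binding partner, and Mpp6 is an RNA-binding protein that joins Mtr4 to the exosome. Their substrates include cryptic unstable transcripts (CUTs), short-lived RNAs that are rarely seen while these proteins work.

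RNA was counted in 8 libraries, 4 groups of 2 biological replicates per the labels. The strain Y3284 carried tor1-1, a disruption of FPR1 by LEU2 (fpr1::loxPLEU2-LoxP), RPL13A fused to FKBP12 (RPL13A-2xFKBP12) and NAB2-FRB, and it was sampled untreated (0 min) and after 15 and 30 min of rapamycin at 1 µg/ml. The control strain Y2615 (MATa) carried the same TOR1, FPR1 and RPL13A alleles, had no FRB tag on NAB2, and was sampled after 30 min at the same dose. Rapamycin ties the FRB-tagged protein to the FKBP12-tagged ribosomal protein, which carries it out of the nucleus, and Nab2 is a nuclear poly(A)-binding protein. The groups at 15 and 30 min are called anchored, and the 0 min and control groups unanchored. The control differs from the 0 min group in strain as well as in rapamycin. The 0 min group was not given the drug, so time, drug and anchoring change together within the anchor-away strain.

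Library totals ranged from 4832946 to 17022931 counts. In 3 libraries, 15 min replicate 1, 30 min replicate 2 and control replicate 1, between 24.4% and 28.2% of features had 0 counts, against 9.18% to 15.4% in the other 5, and results are given with and without these 3. The strains also differed in genes set by mating type: STE3, the a-factor receptor of alpha cells, averaged 28.2 to 55.9 CPM (read counts scaled to a common library total) in the anchor-away groups and 0.224 CPM in the control, while STE2, the alpha-factor receptor of a cells, averaged 2.65 to 10.9 CPM and 130 CPM. The part of this strain difference in any comparison with the control was not tested. CUTs held 0.0423% to 0.0596% of counts in the 4 unanchored libraries and 0.119% to 0.198% in the 4 anchored ones. NAB2 messenger itself averaged 238 CPM without rapamycin, 169 and 215 CPM at 15 and 30 min, and 152 CPM in the control strain. Anchoring moves the protein, so that level is no measure of it. Levels are CPM after TMM scaling, which sets each library relative to the bulk of its RNA, so a change in total RNA per cell cannot be read from them.

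The promoters of the polymerase genes are shown because TRF5 rose in the anchored cells while TRF4 was not called in any comparison (the difference between them was not tested). Each is the stretch from 250 to 101 bases before the coding start, 5′ to 3′ on the coding strand of build R64 (RefSeq), at chrXIV:66267-66416 for TRF5 and chrXV:101225-101374 for TRF4. Capitals mark matches on either strand to GATGAG, the core of the PAC element of ribosome synthesis genes, to TGTAA or TGTAG, RNA motifs bound by Nrd1, and to TCTTG, a motif bound by Nab3.
TRF5: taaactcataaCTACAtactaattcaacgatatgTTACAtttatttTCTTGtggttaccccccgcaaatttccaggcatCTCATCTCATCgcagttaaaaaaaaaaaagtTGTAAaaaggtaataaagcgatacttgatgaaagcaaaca
TRF4: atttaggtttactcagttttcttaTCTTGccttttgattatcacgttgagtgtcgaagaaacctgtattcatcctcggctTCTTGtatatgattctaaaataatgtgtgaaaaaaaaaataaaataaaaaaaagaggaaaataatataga
TRF5 held 2 overlapping matches to GATGAG on the minus strand, beginning at positions -171 and -166 counted from the coding start, and TRF4 held 0.

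Over the whole window from 250 bases before to 50 after the coding start, TRF5 held 3 matches to TGTAA, 2 to TGTAG and 1 to TCTTG, and TRF4 held 1, 0 and 2. The TRF5 matches to TGTAA at -216 and to TGTAG at -239 and 28 were on the minus strand, opposite the coding strand. All other matches of both genes to these 3 motifs were on the coding strand. GATGAG was found in the window of 5 of the 8 members, AAAATTTT (the core of the RRPE element) in 2, TGTAA in 5, TGTAG in 4 and TCTTG in 4. Of 6001 nuclear gene windows of the same length, 20.4% held GATGAG, 9.03% AAAATTTT, 57.4% TGTAA, 41.5% TGTAG and 60.2% TCTTG, counting both strands. These matches are descriptions of the letters.

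How reads that match both paralogues were counted is not stated in the labels. Over aligned coding bases TRF5 and TRF4 were 66.9% identical, and AIR1 and AIR2 68.0%. The longest run of identical bases is shown for each pair because reads lying wholly inside it could not be assigned to 1 gene.
TRF5 and TRF4: aaaaattttggttatgatga
AIR1 and AIR2: agaaagatgtcctagtat
The first lies at chrXIV:67660-67679 in TRF5 and chrXV:102627-102646 in TRF4, both on the plus strand. The second lies at chrIX:211551-211568 in AIR1 and chrIV:145103-145120 in AIR2, both on the minus strand. The runs are 20 and 18 bases long.

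TRF5 (YNL299W, chrXIV:66517-68445, plus strand) encodes the TRAMP polymerase known for its role on ribosomal RNA precursors in the nucleolus. Its level was 32.9 and 35.5 CPM before treatment, 160 and 96.2 CPM at 15 min of rapamycin, 153 and 160 CPM at 30 min of rapamycin, and 47.7 and 29.8 CPM in control cells. Every anchored library was above every unanchored one, and the lowest anchored value, 96.2 CPM, was in the second 15 min replicate. The means were 34.2 ± 1.84 CPM (SD, n = 2) without rapamycin, 128 ± 45.5 CPM after 15 min, 157 ± 4.80 CPM after 30 min and 38.7 ± 12.6 CPM in control cells, resting on 266 to 1789 counts per library.

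TRF5 rose at 15 min against 0 min by 1.91 ± 0.36 on the log2 scale (SE, edgeR's quasi-likelihood test, Benjamini-Hochberg adjusted p = 0.0339 over 6189 features). It was the only member of 8 that passed the threshold of 0.05, beside 0.162% of all features tested. At 30 min the rise against 0 min was 2.20 ± 0.36 (adjusted p = 0.00411 in edgeR), with 1 of 8 members called beside 2.75% of features. Against the control at 30 min it was 2.02 ± 0.36 (adjusted p = 0.00311 in edgeR), with 1 of 8 called beside 6.08%. The 3 comparisons share libraries and are not independent of each other.

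The 4 anchored libraries set against the 4 unanchored ones gave a rise of 1.96 ± 0.26 (95% interval 1.42 to 2.50, adjusted p = 0.000338 in edgeR). In that comparison 6.92% of features were called, and 1 of 8 members. Its unanchored side includes the control strain, so the strain difference enters it, and that part was not tested. STE3 differed by 3.13 in it (adjusted p = 0.0021 in edgeR) and by -0.99 at 30 min against 0 min (adjusted p = 0.556). Of the mating-type genes looked at, only MF(ALPHA)2 was called at 30 min against 0 min, within the anchor-away strain (-2.28, adjusted p = 0.0266 in edgeR). In the comparison of 4 against 4 libraries TRF5 ranked 9 among the 6189 features by p. TRF5 was the 1 member of 8 whose anchored and unanchored libraries did not overlap, beside 14% of all features. That count is near the share of all features, so it is not a result about the members.

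Between the later times, TRF5 differed by 0.29 ± 0.35 (30 minus 15 min, 95% interval -0.45 to 1.02, adjusted p = 0.857 in edgeR), and its groups overlapped. The 2 reference groups differed by 0.18 ± 0.35 (control minus 0 min, 95% interval -0.56 to 0.92, adjusted p = 1 in edgeR). In these comparisons 0 of 8 members were called, beside 0.436% and 0.0808% of features. At an unadjusted p under 0.05 the member counts were also 0, beside 10.6% and 1.78% of all features, and DESeq2 called 0 members in each.

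The call at 15 min rested on few libraries: without 15 min replicate 1 the change was 1.52 (adjusted p = 0.675 in edgeR), and without 0 min replicate 1 it was 1.88 (adjusted p = 0.148). Without the 3 libraries rich in zeros, the change was 1.48 at 15 min and 2.15 at 30 min against 0 min. It was 2.34 against the control and 1.91 for the anchored against the unanchored libraries. That fit left a single library in the 15 min, 30 min and control groups, so only the 0 min pair gave a spread between replicates. When libraries were scaled on mitochondrial counts, the median of all features moved to -0.54, -0.48, -0.23 and -0.39 in those 4 comparisons, TRF5 stood at 1.42, 1.74, 1.75 and 1.59, and the 4-against-4 comparison alone kept its call. With only the libraries of the groups compared in the fit, the adjusted p in edgeR was 0.0531 at 15 min and 0.0582 at 30 min against 0 min.

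**Figure D1:**
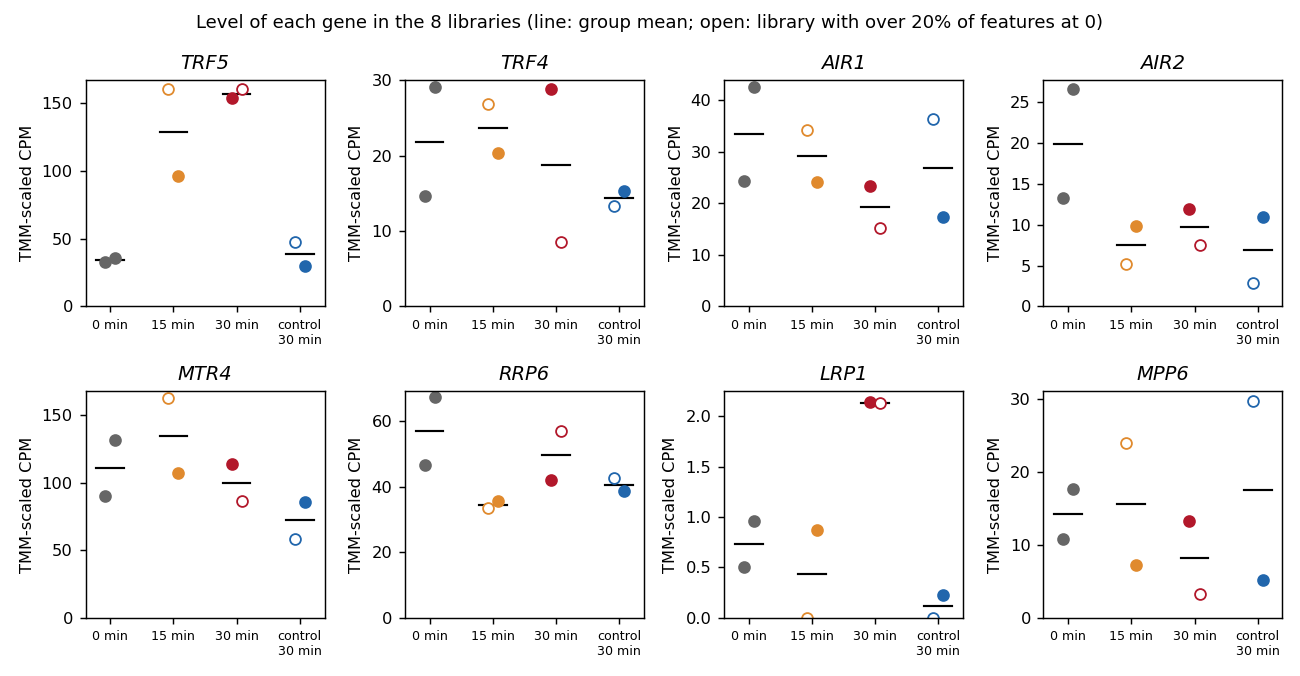
TMM-scaled level (CPM, linear axis from 0, a separate scale for each gene) of the 8 genes in each library, with a line at the mean of each group of 2 and open points for the 3 libraries with over 20% of features at 0. TRF5 lies between 96.2 and 160 CPM in the anchored libraries and between 29.8 and 47.7 CPM in the others, and no other gene has all anchored libraries on one side of all unanchored ones. Of all features tested, 14% have no such overlap.

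**Figure D2:**
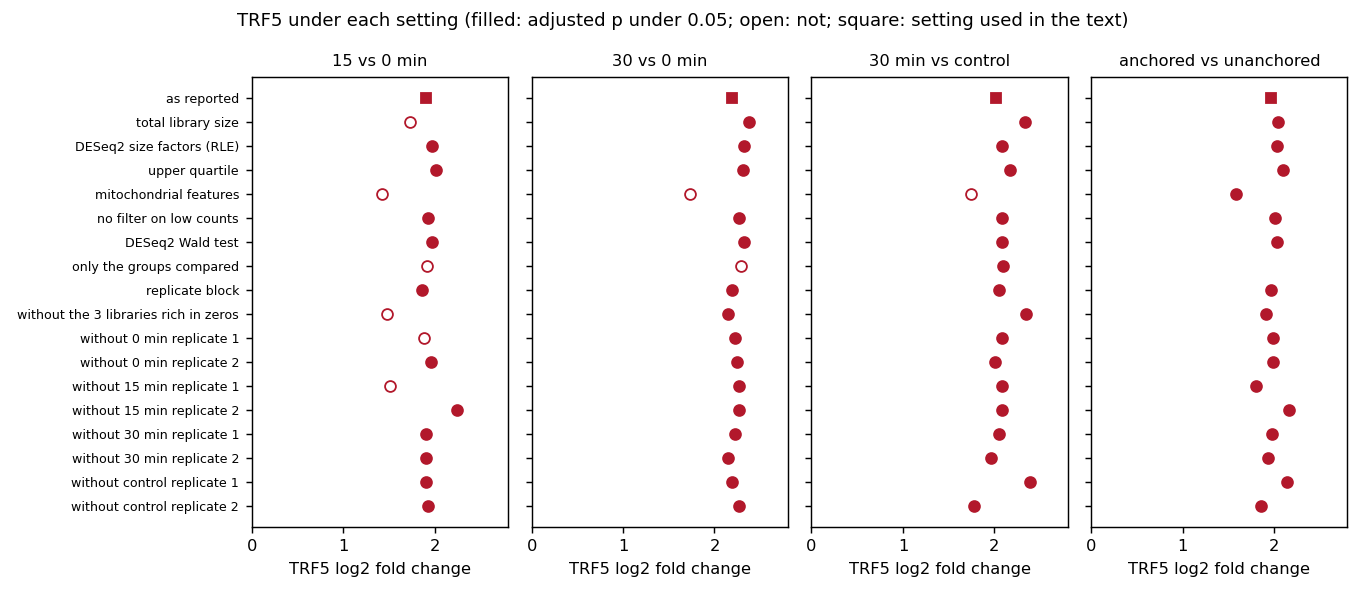
Log2 fold change of TRF5 (horizontal axis) in 4 comparisons under the processing used in the text and each alternative (vertical axis), filled where the adjusted p was under 0.05. All points lie above 1, and open points are found at 15 min in 6 settings, at 30 min in 2, against the control in 1 and in the 4-against-4 comparison in 0.

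TRF4 (YOL115W, chrXV:101475-103229, plus strand) encodes the better known of the polymerases, the one that marks CUTs and other nuclear transcripts for the exosome. Its level was 14.7 and 29.03 CPM without rapamycin, 26.8 and 20.4 CPM after 15 min, 28.9 and 8.51 CPM after 30 min, and 13.3 and 15.4 CPM in the untagged control. The 30 min libraries spanned almost the whole range of the 8, and the 0 min libraries overlapped every other group. The change at 30 min against 0 min was -0.22 ± 0.70 on the log2 scale (95% interval -1.70 to 1.26, adjusted p = 0.961 in edgeR), and that of anchored against unanchored libraries was 0.25 ± 0.50 (95% interval -0.80 to 1.30, adjusted p = 0.826). These intervals leave room for changes of more than 1 log2 unit either way or, in the second, upward.

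The ratio of TRF5 to TRF4 within a library, in counts per base, does not depend on library scaling. It was 2.04 and 1.11 before treatment, 5.45 and 4.30 at 15 min of rapamycin, 4.83 and 17.1 at 30 min of rapamycin, and 3.27 and 1.77 in control cells. The lowest anchored ratio, 4.30, stood above the highest unanchored one, 3.27. Their exact 95% counting intervals were 3.57 to 5.19 and 2.66 to 4.05, which overlap. The highest ratio, 17.1, came from 30 min replicate 2, where TRF4 had 44 counts, and its interval was 12.6 to 23.7. The mean anchored ratio was 3.87 times the mean unanchored one, and 2.78 times without the 3 libraries rich in zeros. No test was applied to these ratios.

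AIR1 (YIL079C, chrIX:210923-212005, minus strand) and AIR2 (YDL175C, chrIV:144484-145518, minus strand) encode the RNA-binding subunits. AIR1 stood at 24.3 and 42.6 CPM without rapamycin, 34.3 and 24.2 CPM after 15 min, 23.4 and 15.3 CPM after 30 min, and 36.5 and 17.4 CPM in the untagged control. AIR2 stood at 13.2 and 26.6 CPM before treatment, 5.15 and 9.90 CPM at 15 min of rapamycin, 11.9 and 7.54 CPM at 30 min of rapamycin, and 2.86 and 10.98 CPM in control cells. Both 0 min libraries of AIR2 were above all 6 others, and neither gene passed the test in any of the 6 comparisons. At 30 min against 0 min AIR1 differed by -0.79 ± 0.58 (95% interval -2.02 to 0.44, adjusted p = 0.659 in edgeR) and AIR2 by -1.03 ± 0.99 (95% interval -3.11 to 1.06, adjusted p = 0.78). AIR2 had 25 to 441 counts per library, and its interval takes in a difference of 3 log2 units downward.

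The ratio of AIR1 to AIR2 per base was 1.76 and 1.53 without rapamycin, 6.36 and 2.33 after 15 min, 1.88 and 1.94 after 30 min, and 12.2 and 1.51 in the untagged control. The 2 highest ratios were in 15 min replicate 1 and control replicate 1, both among the libraries rich in zeros. The mean anchored ratio was 0.736 times the unanchored one with all 8 libraries and 1.31 times without those 3, so its direction turned.

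MTR4 (YJL050W, chrX:342522-345743, plus strand) encodes the helicase, which is essential and also serves the exosome outside TRAMP. Its level was 90.0 and 132 CPM before treatment, 163 and 107 CPM at 15 min of rapamycin, 114 and 86.4 CPM at 30 min of rapamycin, and 58.4 and 86.1 CPM in control cells. All anchored libraries were above both control libraries, the nearest by 86.4 against 86.1 CPM, and they overlapped those at 0 min. The changes were 0.28 ± 0.34 at 15 min against 0 min, -0.15 ± 0.34 at 30 min against 0 min (95% interval -0.86 to 0.57) and 0.47 ± 0.34 at 30 min against the control (95% interval -0.24 to 1.19), with edgeR adjusted p of 1, 0.945 and 0.449. At 30 min against 0 min a doubling of MTR4, 1 log2 unit, lay outside the interval.

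RRP6 (YOR001W, chrXV:326832-329033, plus strand) encodes the nuclear exonuclease. It stood at 46.6 and 67.4 CPM without rapamycin, 33.5 and 35.5 CPM after 15 min, 41.9 and 57.1 CPM after 30 min, and 42.5 and 38.6 CPM in the untagged control. Both 15 min libraries were the lowest of the 8. The change at 15 min against 0 min was -0.72 ± 0.43 (95% interval -1.63 to 0.18, adjusted p = 0.875 in edgeR) and at 30 min against 0 min -0.21 ± 0.43 (95% interval -1.10 to 0.69, adjusted p = 0.933).

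The ratio of MTR4 to RRP6 per base was 1.32 and 1.34 before treatment, 3.32 and 2.06 at 15 min of rapamycin, 1.86 and 1.04 at 30 min of rapamycin, and 0.939 and 1.53 in control cells. Both 15 min ratios were above those of all 6 other libraries. The mean anchored ratio was 1.62 times the unanchored one, and 1.41 times without the 3 libraries rich in zeros.

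**Figure D3:**
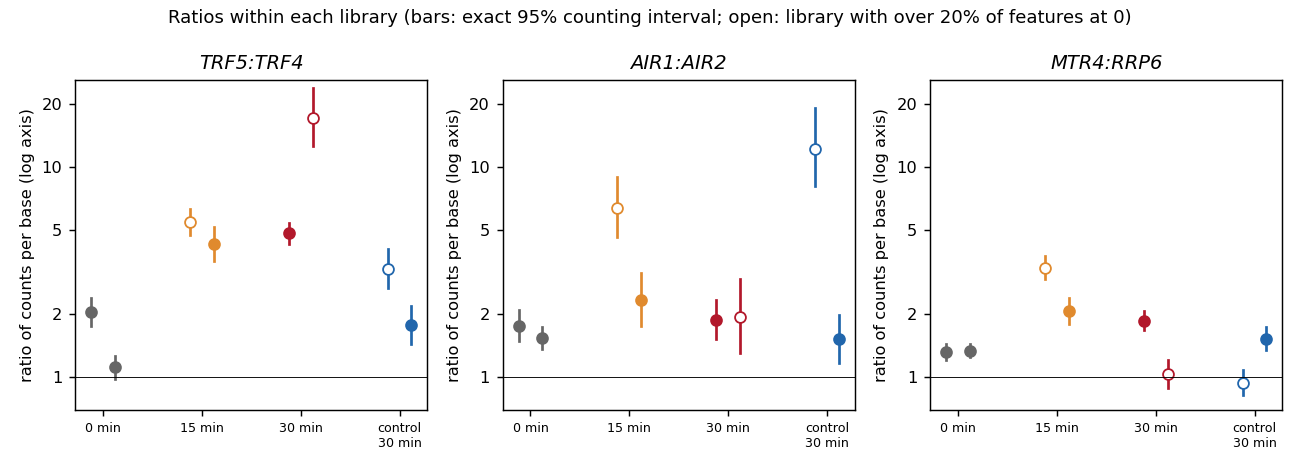
Ratio of counts per base (log axis) of TRF5 to TRF4, AIR1 to AIR2 and MTR4 to RRP6 in each library, with exact 95% intervals that cover counting error only and open points for the 3 libraries with over 20% of features at 0. The TRF5 to TRF4 ratio is 4.30 or more in the anchored libraries and 3.27 or less in the others, and the AIR1 to AIR2 ratio is highest, at 12.2, in control replicate 1.

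LRP1 (YHR081W, chrVIII:267538-268092, plus strand) was barely counted: the untreated libraries held 8 and 16 counts, those at 15 min 0 and 6, those at 30 min 25 and 11, and the control libraries 0 and 2. The libraries at 0 were 15 min replicate 1 and control replicate 1, both rich in zeros, where 3 counts, the limit that a count of 0 allows, would be 0.351 and 0.343 CPM. Relative to TMM-scaled library totals the 30 min libraries together had 2.89 times the 0 min level (exact 95% counting interval 1.68 to 5.06, 36 and 24 counts). Against the control the ratio was 18.9 (4.86 to 162, 36 and 2 counts). Without the 3 libraries rich in zeros, an alternative chosen after seeing the data, it was 9.56 (2.38 to 83.3, 25 and 2 counts), and against 0 min it was 2.90 (1.59 to 5.29, 25 and 24 counts). These intervals cover counting error only, and edgeR's test across replicates gave adjusted p = 0.912 and 0.456.

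MPP6 (YNR024W, chrXIV:672409-672969, plus strand) stood at 10.7 and 17.6 CPM without rapamycin, 24.0 and 7.28 CPM after 15 min, 13.2 and 3.29 CPM after 30 min, and 29.7 and 5.16 CPM in the untagged control. Replicates within each of the last 3 groups differed more than the group means did, and the control libraries were the highest and, but for 30 min replicate 2, the lowest of the 8. The change at 30 min against 0 min was -0.77 ± 0.97 (95% interval -2.81 to 1.28, adjusted p = 0.863 in edgeR). It was -2.10 without 30 min replicate 1 and -0.12 without 30 min replicate 2, and neither value was called.

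Counted together, the median log2 change of the 8 members was -0.04 at 15 min against 0 min, -0.21 at 30 min against 0 min, 0.43 at 30 min against the control and 0.02 for anchored against unanchored libraries. The medians over all features were -0.06, -0.05, 0.06 and 0.00. Groups of 2 did not overlap for 3 of 8 members at 15 min, for 4 at 30 min against 0 min and for 3 at 30 min against the control, beside 45.4%, 47.7% and 47.2% of all features. Counts near these shares are not a result about the members.

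**Figure D4:**
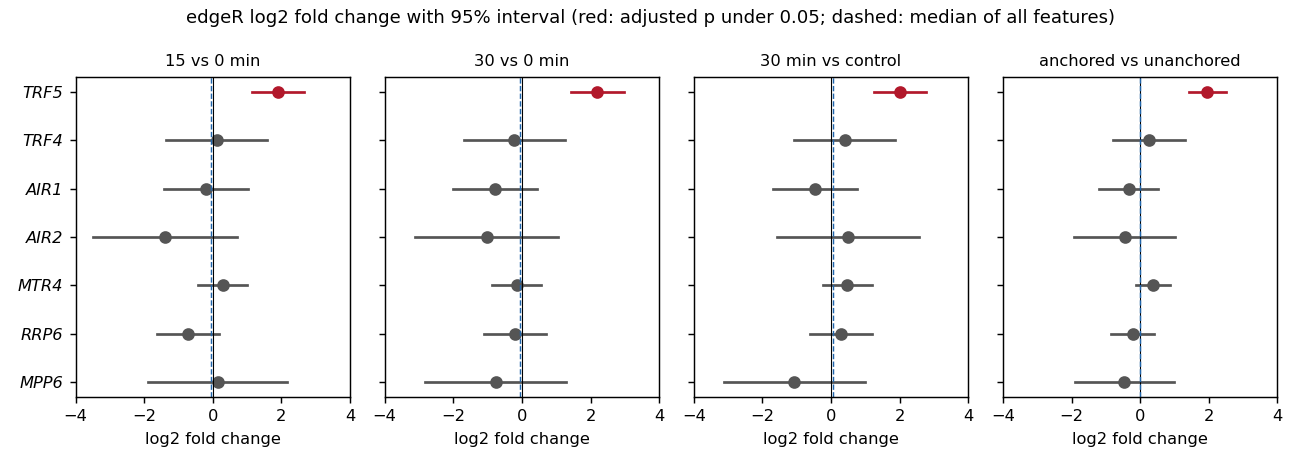
Log2 fold change with 95% interval (edgeR) of 7 genes in 4 comparisons, with LRP1 left out for its low counts, red where the adjusted p was under 0.05 and a dashed line at the median of all features. TRF5 lies at 1.91, 2.20, 2.02 and 1.96, and the intervals of the other 6 genes include 0.

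The order of the genes by level per kilobase shows where TRF5 moved among its partners. At 0 min MTR4 was first at 34.4 ± 9.15 CPM per kb (SD, n = 2), TRF5 stood below MTR4, AIR1, RRP6, MPP6 and AIR2 at 17.7 ± 0.954, TRF4 followed at 12.4 ± 5.79 and LRP1 was last at 1.32 ± 0.583. Each gene from MTR4 to AIR2 overlapped the next, and so did AIR2 and TRF5. At 30 min TRF5 was first at 81.3 ± 2.49 CPM per kb, MTR4 second at 31.1 ± 6.01 and RRP6 next at 22.5 ± 4.86. These 3 did not overlap each other, while in the order RRP6, AIR1, MPP6, TRF4 and AIR2 each overlapped the next. In the control TRF5 lay at 20.1 ± 6.55 CPM per kb, below MPP6, AIR1 and MTR4, and overlapped the genes on either side.

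Ranked by counts per base among the 4911 tested open reading frames of the same library, TRF5 stood at percentiles 40 and 37.5 before treatment, 77.8 and 68.7 at 15 min of rapamycin, 80.5 and 78.3 at 30 min of rapamycin, and 48.3 and 39.1 in control cells. TRF4 stood between percentiles 19.7 and 37.5 in the 8 libraries. These ranks use no scaling between libraries.

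**Figure D5:**
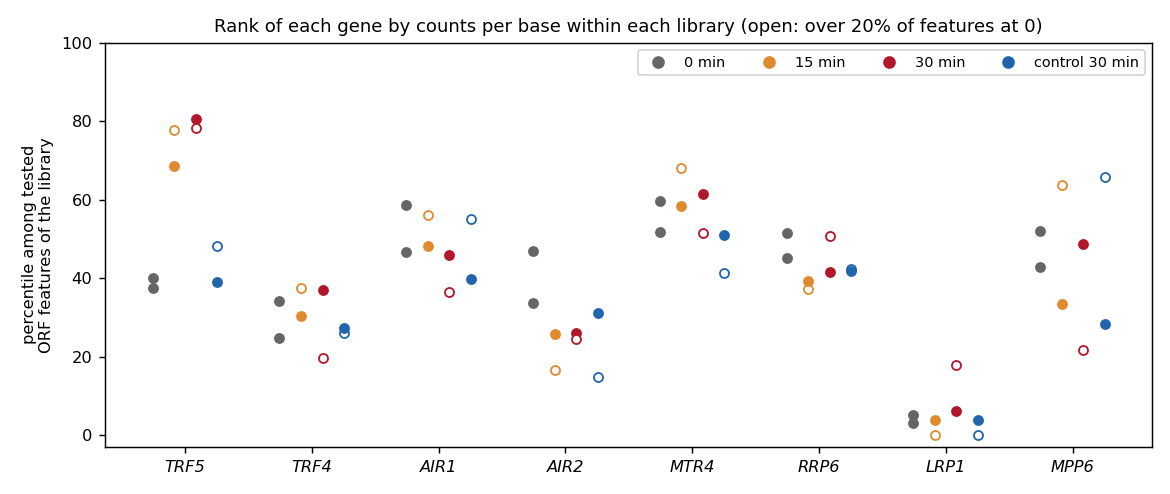
Percentile of each gene among 4911 open reading frames of the same library by counts per base (100 is the highest), one point per library, open for the 3 libraries with over 20% of features at 0. TRF5 is between 68.7 and 80.5 in the anchored libraries and between 37.5 and 48.3 in the others, and LRP1 is near the bottom.

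The Nrd1-Nab3-Sen1 complex ends transcription of short non-coding RNAs and hands them to TRAMP and the exosome. NRD1, an RNA-binding subunit, had the highest mean level per kilobase of the list over the 4 groups, although NAB3 was higher without rapamycin (146 CPM per kilobase, against 72.2 for NRD1) and in the untagged control (158, against 83.2). NRD1 stood at 142 and 107 CPM without rapamycin, 341 and 335 CPM after 15 min, 484 and 520 CPM after 30 min, and 125 and 163 CPM in the untagged control. Every anchored library was above every unanchored one. NRD1 rose by 1.44 at 15 min against 0 min (adjusted p = 0.0276 in edgeR), by 2.01 at 30 min (0.000884), by 1.80 against the control (0.000774) and by 1.62 ± 0.18 in the anchored libraries (0.000284).

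NAB3, the partner of NRD1, stood at 350 and 354 CPM before treatment, 194 and 170 CPM at 15 min of rapamycin, 210 and 279 CPM at 30 min of rapamycin, and 375 and 386 CPM in control cells. It fell by 0.79 in the anchored against the unanchored libraries (SE 0.18, adjusted p = 0.0107 in edgeR), with all 4 anchored libraries below all unanchored ones. Without 15 min replicate 1 or replicate 2 that call was lost (adjusted p = 0.0564 and 0.078), and in the other 5 comparisons edgeR did not call NAB3, while DESeq2 called it at 15 min against 0 min. The 15 min call of NRD1 was lost without 15 min replicate 1 (adjusted p = 0.35) or replicate 2 (0.0736), and without 0 min replicate 2 (0.0816). It was also lost without the 3 libraries rich in zeros (1.42), a fit that left a single library in 3 groups. With only the groups compared in the fit it was lost too (adjusted p = 0.0516 in edgeR), as was the 30 min call (0.0582). With mitochondrial scaling the NRD1 calls at 15 min, at 30 min and against the control were lost (0.724, 0.135 and 0.134). SEN1, the helicase of the complex, was called in 0 of the 6 comparisons, with -0.35 ± 0.20 (adjusted p = 0.346) in the anchored libraries.

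Of the 10 tested genes of the core exosome, which these cofactors serve, edgeR called 0 in 5 of the 6 comparisons, where 0 to 2 genes had an unadjusted p under 0.05, beside 1.78% to 20.8% of all features, and DESeq2 called MTR3 at 30 min against 0 min and against the control. MTR3, a ring subunit, fell in the anchored against the unanchored libraries by 1.08 (SE 0.31, adjusted p = 0.0417 in edgeR). MTR3 stood at 63.2 and 56.6 CPM without rapamycin, 41.4 and 32.5 CPM after 15 min, 19.97 and 18.2 CPM after 30 min, and 50.2 and 54.6 CPM in the untagged control. Its anchored libraries were all below the unanchored ones. That call was lost under each of the 4 other scalings and without either 0 min, either 15 min or either control library (adjusted p between 0.0516 and 0.279). The list's median was -0.46 in that comparison, beside 0.00 for all features, and 8 of its 10 genes were negative, beside 49.8% of all features. Between the unanchored groups themselves (control minus 0 min) 9 of the 10 were negative, with a median of -0.22, beside 55.5% of all features. CSL4, which had the highest mean level per kilobase over the 4 groups but stood below RRP42 and RRP46 in both unanchored groups, differed by 0.22 ± 0.25 in the anchored libraries (adjusted p = 0.672).

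In the remaining lists 0 of 9 genes were called by edgeR or by DESeq2 in any of the 6 comparisons, and 0 had an unadjusted p under 0.05 in edgeR. Of all features, 6.83% had one at 15 min against 0 min, 14.7% at 30 min against 0 min, 20.8% at 30 min against the control, 10.6% between the later times, 1.78% between the unanchored groups and 21.3% in the anchored libraries. They were the nuclear 5′ decay and processing genes RAT1, RAI1 and RNT1, the Mtr4 docking proteins NOP53 and UTP18, and the Ski complex of cytoplasmic 3′ decay. RAT1, a nuclear 5′ exonuclease, differed by 0.17 ± 0.21 in the anchored libraries (adjusted p = 0.707), and UTP18, which recruits Mtr4 to ribosome precursors, by -0.24 ± 0.28 (adjusted p = 0.684). SKI8, a subunit gene of the Ski complex, had the highest mean level per kilobase of the Ski genes over the 4 groups but stood below SKI2 at 15 min, with 12.9 against 15.8 CPM per kilobase. In the anchored libraries it differed by -0.89 ± 0.46 (95% interval -1.85 to 0.066, adjusted p = 0.277).

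Among 4426 open reading frames with a mean of at least 50 counts, the one whose log2 level was most like that of TRF5 over the 8 libraries was HRP1 (Pearson r = 0.989), a subunit of the cleavage factor that helps form messenger 3′ ends. HRP1 stood at 410 and 416 CPM before treatment, 1145 and 1006 CPM at 15 min of rapamycin, 1249 and 1226 CPM at 30 min of rapamycin, and 467 and 388 CPM in control cells. It was higher in all 4 anchored libraries, and it rose by 1.58 at 30 min against 0 min (adjusted p = 0.00253 in edgeR). HRP1 was picked for its likeness to TRF5 in these same libraries, so its rise is no separate support for that of TRF5. SLI1 and MNN4 followed at r = 0.951 each, with adjusted p of 0.39 and 0.418 at 30 min. These correlations describe 8 libraries in 4 groups that share their treatment and depth, and the 3 genes were the highest of 4426.

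For TRF4 the most alike were HFD1 (r = 0.98), NUP60 (0.973) and IFM1 (0.965), for MTR4 they included PSK2 (0.964) and RGL1 (0.947), and for RRP6 they were SEC6 (0.944), TCD1 (0.93) and YGL108C (0.904). None of these 8 was called at 30 min against 0 min, where their adjusted p in edgeR lay between 0.927 and 0.996. They were picked for likeness to members that were not called there, so this follows from the choice and is no separate result.

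The annotated genes beside TRF5 lay on its own strand, TOS6 upstream at a gap of 464 bases and CLA4 downstream at 469. TOS6 stood at 595 and 443 CPM without rapamycin, 209 and 303 CPM after 15 min, 373 and 308 CPM after 30 min, and 278 and 722 CPM in the untagged control, and differed by -0.79 in the anchored libraries (adjusted p = 0.0885 in edgeR). CLA4, a kinase gene, stood at 114 and 105 CPM before treatment, 121 and 148 CPM at 15 min of rapamycin, 164 and 167 CPM at 30 min of rapamycin, and 85.5 and 133 CPM in control cells, and differed by 0.45 (adjusted p = 0.226). Neither was called in any of the 6 comparisons, and neither was any other tested neighbour within 500 bases of a member: PTH4 beside TRF4, THS1 beside AIR1, GID12 and DLD1 beside AIR2, IRC8 beside MTR4, ALG6 beside RRP6, KSP1 beside LRP1 and SNF12 beside MPP6. CHM7 beside MTR4 had too few counts to be tested, and a transfer RNA beside AIR1 and SEC12 beside MPP6 were not analysed here. Only annotated genes were looked up as neighbours, so CUTs and other transcripts outside the gene annotation were not examined.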

How the data were processed

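The authors deposited whole-number read counts per annotated feature, not normalised. Build R64, bedtools 2.17.0, HTSeq 0.5.3 and GSNAP are listed by the submitters' processing notes, with no role stated in the sources used here. Libraries were strand-specific and depleted of ribosomal RNA, per the labels' protocols. The 30 min library numbered 3 in its title is replicate 2 in its description, which was followed. The labels' fission yeast spike-in had 0 features in the table, so TMM scaling was used. Of 7711 rows, 29 exact repeats and 24 entries that shadowed a gene were removed, leaving 7658.

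The test was edgeR 4.0.16 in R 4.3.3 (filterByExpr, 6189 features, 1 model over 8 libraries, glmQLFit robust, 4 residual degrees of freedom, common dispersion 0.372). Tests were 2-sided, with Benjamini-Hochberg adjustment over all tested features and a threshold of 0.05. The procedure was run on simulated counts that did not model the libraries rich in zeros, so that run does not speak to them. DESeq2 1.42.0 was an alternative. Likeness used log2 CPM with a prior count of 2. Besides the members, the text names genes of the other lists that passed or had the highest mean level per kilobase, the 3 most alike open reading frames (1 of those for MTR4 is not reported here) and neighbours within 500 bases. STE2, STE3 and MF(ALPHA)2 were named, of 9 mating-type genes looked at, after their values were seen. Replicates are biological per the labels, and an interval or floor on counts covers counting error only, since reads carry no molecular identifiers. Members and lists were chosen with earlier results of these data known.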

Additional observations from a re-analysis of the deposited data

How the results depend on the processing

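TRF5 kept its direction in the 15 min, 30 min, control and 4-against-4 comparisons under every alternative run, between 1.42 and 2.38 on the log2 scale, and the 4-against-4 call held in all 16 alternatives (highest adjusted p 0.0166). At 15 min against 0 min its call was lost with total library size (1.73, adjusted p = 0.0526 in edgeR), mitochondrial scaling (1.42, 0.554) and only the groups compared (1.92, 0.0531). It was also lost without the libraries with over 20% of features at 0 (1.48), a fit that left a single library in the 15 min, 30 min and control groups. Over single libraries left out the change was 1.52 to 2.24. At 30 min it was lost with mitochondrial scaling (1.74, 0.123) and only the groups compared (2.29, 0.0582), and against the control with mitochondrial scaling (1.75, 0.092). In those settings 0 members were called in place of 1, and leaving out single libraries gave 0 to 1 at 15 min. Causes were not tested.

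The number of features called at 15 min, 10, became 29 with total library size, 0 with mitochondrial scaling, 75 with no filter, 67 with DESeq2, 17 with a replicate block, 5 without the libraries rich in zeros and 0 to 52 with single libraries left out. At 30 min, 170 became 14 with mitochondrial scaling, 319 with no filter, 311 with DESeq2, 0 with only the groups compared, 265 without the libraries rich in zeros and 40 to 431. Against the control, 376 became 79, 643 with no filter, 700 with DESeq2 and 243 to 603. Between 30 and 15 min, 27 became 5 with total library size, 8 with DESeq2's size factors, 0 with mitochondrial scaling, 133 with no filter, 157 with DESeq2, 0 without the libraries rich in zeros and 0 to 282. Between control and 0 min, 5 became 3 with mitochondrial scaling, 40 with no filter, 14 with DESeq2, 10 with only the groups compared, 9 without the libraries rich in zeros and 5 to 29. For the 4-against-4 comparison, 428 became 677 with no filter, 677 with DESeq2 and 190 to 652.

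Higher and lower calls, 9 and 1, 31 and 139, 81 and 295, 2 and 25, 1 and 4, and 116 and 312 in the order 15 min, 30 min, control, 30 against 15 min, control against 0 min and 4 against 4, became 11 and 18, 47 and 94, 164 and 149, 3 and 2, 1 and 5, and 148 and 231 with total library size. In the last they became 148 and 233 with DESeq2's size factors, 169 and 193 with the upper quartile and 22 and 296 with mitochondrial scaling. Mitochondrial scaling gave 0 and 14 at 30 min, 7 and 72 against the control and 0 and 3 for control against 0 min, and the upper quartile gave 96 and 200 against the control.

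Values of members never called turned sign as follows. At 15 min TRF4 was -0.10 with total library size, -0.38 with mitochondrial scaling, -0.11 without the libraries rich in zeros and -0.27 to 0.68 with single libraries left out. AIR1 ranged from -0.52 to 0.26 and MTR4 from -0.023 to 0.58 there, and MTR4 was -0.21 with mitochondrial scaling and -0.058 without the libraries rich in zeros. MPP6 was -0.057 with total library size, -0.35 with mitochondrial scaling, -0.41 with the replicate block, -0.97 without the libraries rich in zeros and -0.93 to 0.77. At 30 min TRF4 was 0.38 without the libraries rich in zeros and -1.36 to 0.38, MTR4 0.030 with total library size, 0.019 without them and -0.36 to 0.14, and RRP6 -0.46 to 0.076. Against the control TRF4 ranged from -0.75 to 0.99, AIR1 from -0.84 to 0.15 and AIR2 from -0.18 to 1.84, MPP6 from -2.40 to 0.67, AIR1 was 0.41 and MPP6 1.34 without the libraries rich in zeros, and RRP6 -0.098 with mitochondrial scaling. TRF5 between control and 0 min was -0.012 with mitochondrial scaling, -0.20 without the libraries rich in zeros and -0.20 to 0.49. In the 4-against-4 comparison TRF4 was -0.025 and MTR4 -0.0075 with mitochondrial scaling, MPP6 0.18 without the libraries rich in zeros, and the ranges were -0.32 to 0.55 for TRF4, -0.80 to 0.23 for AIR2 and -1.13 to 0.41 for MPP6. The AIR1 to AIR2 ratio turned from 0.736 to 1.31.

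Libraries with the same replicate number had deviations correlated between -0.264 and 0.109, so the numbers were not taken to pair them. With the replicate block TRF5 kept its 4 calls, and MTR3 lost its own (adjusted p = 0.0565). With 2 libraries per group and a common biological coefficient of variation of 0.61, real changes could go uncalled. The printed intervals show which sizes of change the data leave room for. Identity of the proteins was not computed, and a fit of only the groups compared was not run for the 4-against-4 comparison, which uses all groups.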
